A study of Mus musculus with 110 samples.

Results

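The diet by temperature interaction in inguinal white adipose tissue (iWAT, the subcutaneous fat pad of the mouse groin) was measured in 27 of the 110 RNA-seq libraries of the series, which are all those whose titles name this depot. The term is (MetR_CE minus MetR_RT) minus (Ctrl_CE minus Ctrl_RT) on the log2 scale, and so sets the effect of cold on a methionine-restricted diet against the effect of cold on a control diet. The series holds liver and 3 fat depots of wild-type male C57BL/6N mice, which were 16 weeks old and housed singly. All mice ate a diet without cysteine for 7 days, which held 0.86% methionine in the control groups (Ctrl) and 0.12% in the methionine-restricted groups (MetR) by the sample labels. Ctrl_RT (7 libraries) and MetR_RT (7) stayed at room temperature, 22 °C, whereas Ctrl_CE (7) and MetR_CE (6) underwent cold exposure (CE) at 4 °C for 24 h. In the paper this cold day followed the 7 days at 22 °C. Cold therefore cannot be told apart from the added day, which also lengthened the time since the diets began. Each library came from a different mouse.

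Cold and methionine restriction both raise energy expenditure in mice. In iWAT, noradrenaline from sympathetic nerves acts on beta-adrenergic receptors of adipocytes, raises cAMP, releases fatty acids from lipid droplets and turns on thermogenic genes such as Ucp1, the uncoupling protein of brown and beige adipocytes. Sustained stimulation is also known to raise fuel uptake, lipid synthesis and mitochondrial genes in the same depot. An interaction below 0 means that cold added less or took away more on MetR than on the control diet. An interaction above 0 means that it added more or took away less.

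Total counts ran from 16607493 to 33141066 per library, and the group medians were 19044743 (Ctrl_RT), 20405810 (Ctrl_CE), 21143818 (MetR_RT) and 27782035 (MetR_CE). All 22 adipocyte genes of the marker list were above 0 in each of the 27 libraries. Other tissue was present in some of them. The summed level of 24 skeletal muscle genes ran from 31.4 to 7735 CPM (counts scaled to library size) in Ctrl_RT, from 48.3 to 2045 in Ctrl_CE, from 185 to 30420 in MetR_RT and from 71.4 to 7480 in MetR_CE. Epithelial genes summed to 359.4 CPM in Ctrl_CE replicate 5 and to at most 79.7 CPM elsewhere, with the milk protein genes Csn1s1 and Csn2 at 0 throughout. Ctrl_RT replicate 5 stood apart among the genes that carry the interaction, as its level was the highest of the 7 Ctrl_RT libraries for 249 of the 300 genes called below 0.

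Genes called in the interaction mostly had a smaller cold effect on MetR than on the control diet, in both directions. The interaction was called for 435 of 26428 genes (1.65%), of which 300 lay below 0 (1.14%) and 135 above 0 (0.511%). A call required an adjusted p under 0.05 and a change of at least 1.5-fold. Cold changed 4211 genes on the control diet (15.9%) and 498 on MetR (1.88%), while MetR changed 3067 genes at room temperature (11.6%) and 599 in the cold (2.27%). These counts do not measure effect size, as p-values were adjusted within each contrast and MetR_CE held 6 libraries. For macrophage genes, with like median cold effects on the 2 diets (-0.996 and -0.91), 17 and 4 of 27 were called lower. The same limit holds for the counts by list below. Over all genes tested the median interaction was 0.04, and 4921 genes had an unadjusted p under 0.05.

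The number of calls depended on single libraries. It was 901 without Ctrl_RT replicate 5, 872 without Ctrl_CE replicate 7, 731 without MetR_CE replicate 1, 689 without MetR_RT replicate 5 and 681 without MetR_RT replicate 7. It was 169 without MetR_CE replicate 4, all of them among the 435, and 190 without MetR_CE replicate 5. Leaving out Ctrl_RT replicate 1, 3 or 6, Ctrl_CE replicate 1, 2 or 3, MetR_RT replicate 3, 4 or 6, or MetR_CE replicate 2 or 3 lowered it by over 1.5 times in each case, to 231 at the lowest. Without the 5 libraries with the most muscle or epithelial RNA, 255 genes were called. edgeR's glmTreat, which tests against the 1.5-fold threshold itself, called 0 genes with 1333 at an unadjusted p under 0.05, and DESeq2 called 930 without shrinkage and 415 with it.

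Genes below 0 mostly rose with each single stimulus, and few differed between MetR_RT and MetR_CE. Against Ctrl_RT, the median log2 fold change of the 300 genes was 0.89 in Ctrl_CE, 0.72 in MetR_RT and 0.64 in MetR_CE, beside a median of 1.65 for the sum of the single effects. Of these genes 247 rose with cold on the control diet and 196 with MetR at room temperature, and with cold on MetR 2 rose and 10 fell. The 135 genes above 0 mirrored them, with medians of -0.97, -0.74 and -0.54 beside a sum of -1.77, and 102 fell with cold on the control diet. All these values share libraries with the contrast that chose the genes and describe its shape only.

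**Figure D1:**
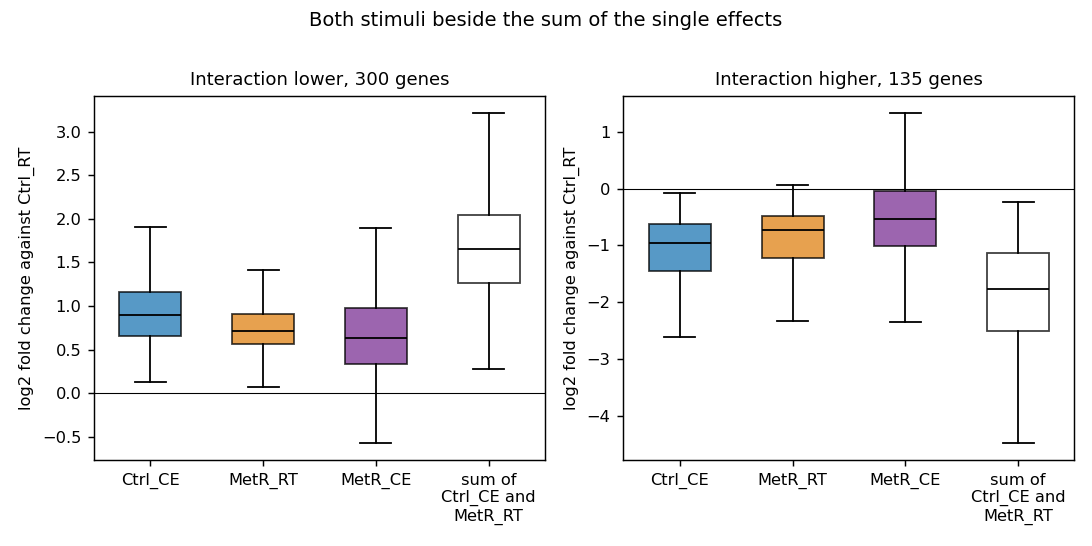
Log2 fold change against Ctrl_RT over the genes called below 0 (left) and above 0 (right), in Ctrl_CE, MetR_RT and MetR_CE and for the sum of the single effects. Boxes hold the quartiles over genes, the line is the median, whiskers end within 1.5 box heights and points beyond them are not drawn. In the left panel the median of 0.64 in MetR_CE lies near those of the single stimuli and under the sum of 1.65.

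Of the 300 genes below 0, MetR_CE was called below MetR_RT or Ctrl_CE in 28, below both of them in 5, and below neither in the rest. In 107 of the 135 genes above 0, MetR_CE was called above neither. In the other 28 it was called above at least 1 of them. The 3 genes above both were Zim1, Unc79 and Gm10138. The libraries do not mark strand, so that reads of the 6 antisense genes above 0 and of the 9 below 0 cannot be told apart from those of the genes on the opposite strand.

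**Figure D2:**
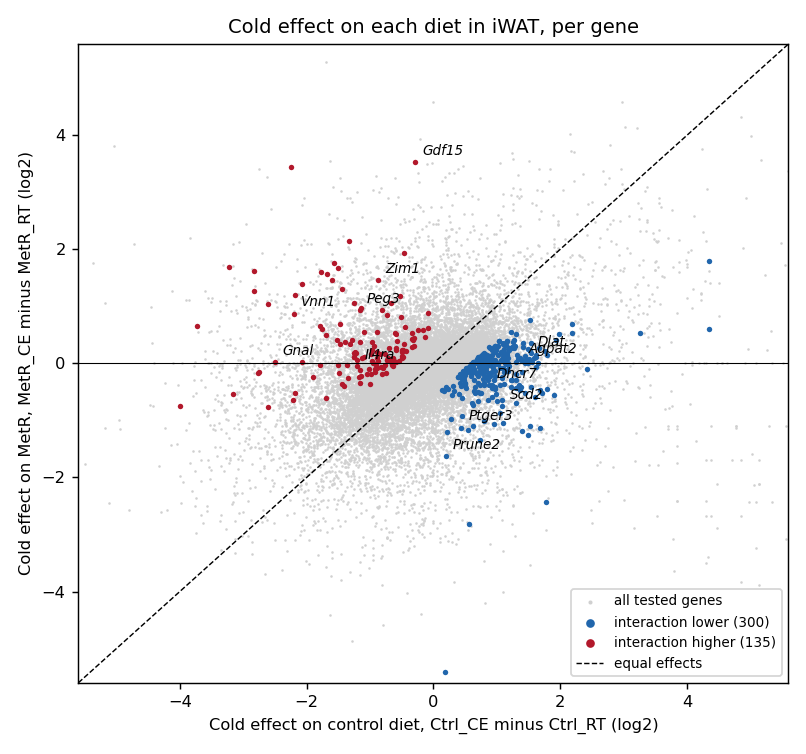
Cold effect on MetR (vertical axis, log2) against cold effect on the control diet (horizontal axis, log2), with each tested gene in grey, the 300 genes called below 0 in blue and the 135 called above 0 in red. The dashed line marks equal effects. Blue genes lie mostly to the right of 0 and near 0 in height, red genes mostly to the left, and 73 tested genes, 0 of them called, lie past the axes, which end at 5.6.

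Gypc, which encodes the membrane protein glycophorin C, had the smallest adjusted p. It ran from 37.8 to 53.9 CPM in Ctrl_RT (median 47.4), from 61.7 to 76.1 in Ctrl_CE (63.2), from 53.9 to 79.9 in MetR_RT (62.7) and from 41.9 to 54.7 in MetR_CE (46.98). Medians were higher after either stimulus and close to that of Ctrl_RT after both. Every Ctrl_CE library was above Ctrl_RT, MetR_RT and MetR_CE each overlapped Ctrl_RT, and no MetR_CE library reached the lowest Ctrl_CE library. The interaction was -0.91 ± 0.12 (SE, log2 scale; adjusted p = 0.000762), although the effect of cold on the control diet, 0.51, was itself under the 1.5-fold threshold.

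Kmt5a, the histone H4 lysine 20 monomethyltransferase, had the same form, with medians of 152, 246, 206 and 169.7 CPM in Ctrl_RT, Ctrl_CE, MetR_RT and MetR_CE, the order used for all medians that follow (-0.94 ± 0.15, adjusted p = 0.0046). Every Ctrl_CE library lay above every Ctrl_RT library, and those of MetR_CE overlapped Ctrl_CE and MetR_RT. Ppp1r1a, an inhibitor of protein phosphatase 1 that protein kinase A activates, had medians of 67.4, 117, 103 and 92.6 CPM (-0.97 ± 0.16, adjusted p = 0.00688), and its MetR_CE libraries were all below Ctrl_CE. Coq7, a hydroxylase of ubiquinone synthesis, stayed raised instead, at 26.3, 72.7, 61.1 and 75.6 CPM (-1.05 ± 0.19, adjusted p = 0.00749). Rab3a, a small GTPase of secretory vesicles, did likewise at 10.8, 23.2, 20.5 and 21.6 CPM (-1.05 ± 0.18, adjusted p = 0.00688), and for both genes all Ctrl_CE and MetR_RT libraries were above Ctrl_RT. Among the 12 genes with the smallest adjusted p below 0 were also Odf3l1, Fam241a, Agpat2, Trappc4 and Fam69b, with interactions from -1.48 to -0.72. The calls of these genes, Gypc included, remained when any 1 library was left out.

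**Figure D3:**
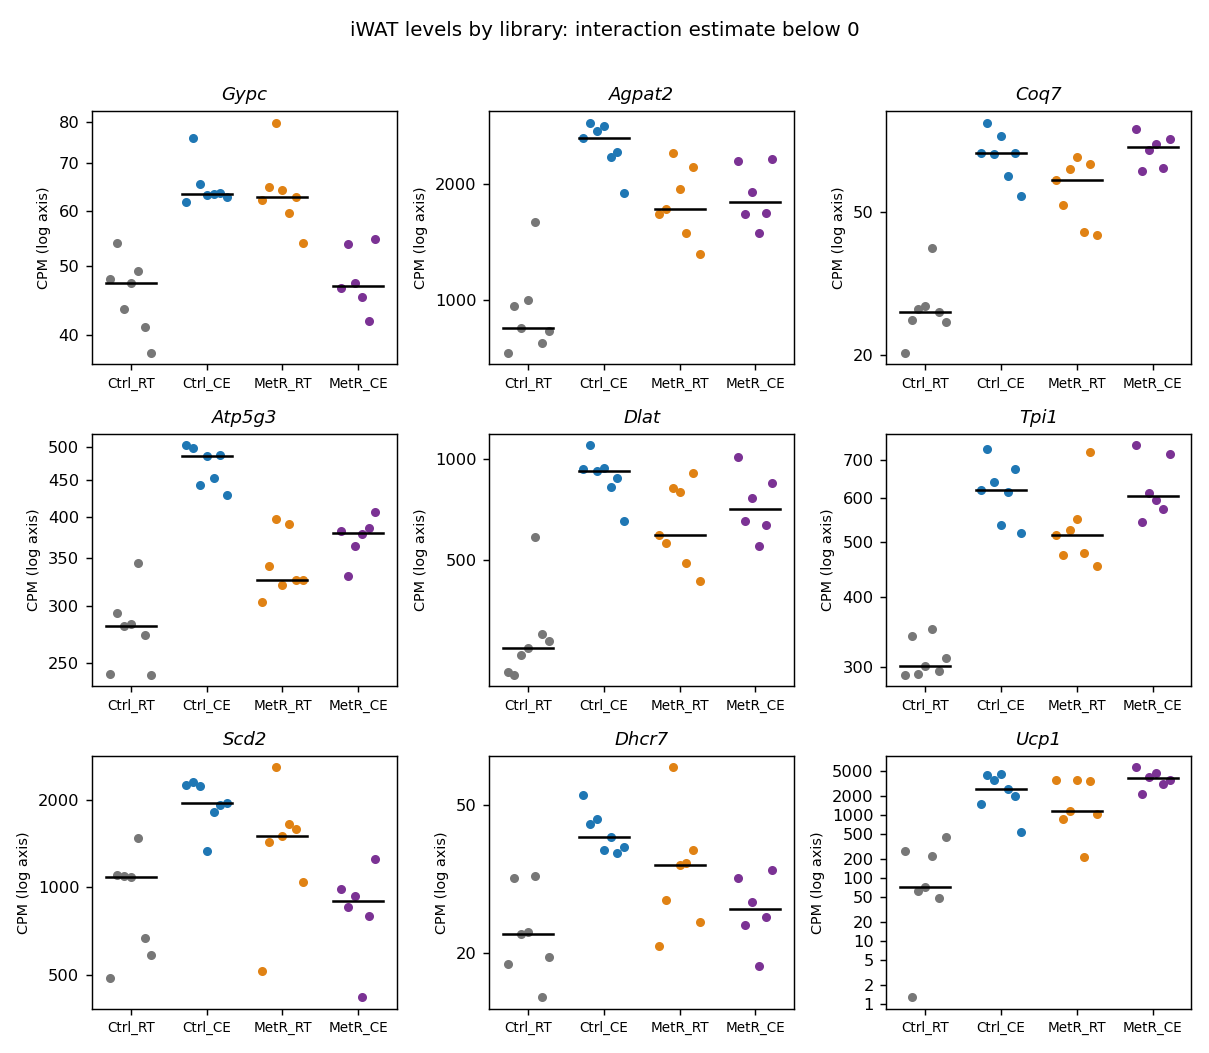
Levels of 9 genes with an interaction estimate below 0, in CPM on log axes, with a point per library (7 in Ctrl_RT, Ctrl_CE and MetR_RT, 6 in MetR_CE) and a line at the group median. Agpat2, Coq7, Dlat and Tpi1 have MetR_CE medians above their Ctrl_RT medians, Gypc and Scd2 have MetR_CE medians of 46.98 and 896 CPM, below their Ctrl_RT medians, and Ucp1, which was not called, has its highest median in MetR_CE.

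De novo lipogenesis, the synthesis of fatty acids from acetyl-CoA, rose with cold in most of its genes on the control diet and in few on MetR. Of 27 genes tested, 8 were called below 0 (1.14% of all genes were) and 0 above 0. The median interaction was -1.15 (0.04 over all genes). With cold, 19 rose on the control diet (5.99% of all genes did) and 1 on MetR (0.602%), with medians of 0.98 and -0.23. At room temperature 7 rose with MetR (4.25% of all genes did), with a median of 0.51. Between the diets in the cold, 3 were lower on MetR (1.55%) and 1 higher (0.715%), with a median of -0.61. DESeq2 without shrinkage called 18 below 0, and edgeR without the 5 libraries named above called 3.

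Scd2, a stearoyl-CoA desaturase, ran from 487 to 1476 CPM in Ctrl_RT (median 1087), from 1335 to 2302 in Ctrl_CE (1955), from 514 to 2588 in MetR_RT (1503) and from 419 to 1256 in MetR_CE (896). The MetR_CE libraries were all below those of Ctrl_CE, a difference of -1.17 (adjusted p = 0.0249), and the interaction was -1.84 ± 0.39 (adjusted p = 0.0146). Fads2, the delta-6 desaturase of polyunsaturated fatty acids, had medians of 15.4, 35.4, 28.6 and 21.9 CPM (-1.54 ± 0.37, adjusted p = 0.0243), a call lost without MetR_CE replicate 4 (adjusted p = 0.0537). Pnpla3, a lipid droplet protein induced by lipogenic signals, had medians of 429.6, 632, 522 and 471 CPM (-1.05 ± 0.23, adjusted p = 0.0166). For both genes no MetR_CE library reached the lowest of Ctrl_CE.

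Fasn, fatty acid synthase, ran from 12120 to 39470 CPM in Ctrl_RT (median 19800), from 38570 to 53390 in Ctrl_CE (45530), from 20630 to 64670 in MetR_RT (38430) and from 12850 to 40930 in MetR_CE (31370). Its interaction of -1.47 ± 0.38 (adjusted p = 0.034) was lost in 14 of the 27 fits without 1 library, with an adjusted p of up to 0.0643. Tkt, a transketolase of the pentose phosphate pathway that supplies NADPH, was called at -1.53 ± 0.39 (adjusted p = 0.0333) and lost in 11 such fits. Acly, which makes cytosolic acetyl-CoA from citrate, missed the threshold at -1.98 ± 0.58 (adjusted p = 0.0554), while its MetR_CE libraries, from 1245 to 6767 CPM, were all below those of Ctrl_CE, from 8869 to 12540 CPM. Acly passed in 6 of the 27 fits and in DESeq2 without shrinkage (adjusted p = 0.00658). The other called members were Pgd, Acss2 and Mid1ip1.

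Cholesterol synthesis genes were called in the same direction. Of 29 genes of synthesis and uptake, 7 were called below 0 (1.14% of all genes were) and 0 above 0, with a median of -0.89. The called genes were Mvk, Dhcr7, Nsdhl, Pmvk, Fdps, Sc5d and Lss, enzymes between mevalonate and cholesterol. With cold, 16 rose on the control diet and 0 on MetR, where 1 fell (1.28% of all genes did), and the medians were 0.70 and -0.13. With MetR at room temperature 6 rose (4.25% of all genes did), with a median of 0.31.

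Dhcr7, the last reductase of the pathway, ran from 15.2 to 32.1 CPM in Ctrl_RT (median 22.4), from 37.04 to 53.1 in Ctrl_CE (41.03), from 20.9 to 63.2 in MetR_RT (34.5) and from 18.5 to 33.4 in MetR_CE (26.2). Ctrl_CE lay above Ctrl_RT and above MetR_CE without overlap, and the interaction was -1.26 ± 0.28 (adjusted p = 0.018). The kinase Mvk had the smallest adjusted p of the list (-0.59 ± 0.13, adjusted p = 0.0157), but with an estimate near the 1.5-fold threshold its call was lost in 10 of 27 fits without 1 library. Nsdhl and Pmvk gave -1.27 ± 0.31 and -1.44 ± 0.35, and lost their calls in 2 and 3 of these fits and without the 5 libraries named above.

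Triglyceride synthesis genes were called below 0 as well. Of 15 genes 3 were called below 0 (1.14% of all genes were) and 0 above 0. The median interaction was -0.51, and the median between the diets in the cold was -0.03. With cold 9 rose on the control diet (5.99% of all genes did) and 1 on MetR (0.602%). With MetR at room temperature 6 rose (4.25%). Agpat2, which adds the second acyl chain to the glycerol backbone, ran from 733 to 1599 CPM in Ctrl_RT (median 849.6), from 1901 to 2880 in Ctrl_CE (2624), from 1317 to 2408 in MetR_RT (1728) and from 1498 to 2319 in MetR_CE (1797). Every Ctrl_CE library was above Ctrl_RT, whose highest value belonged to replicate 5, and the interaction was -1.34 ± 0.23 (adjusted p = 0.00688). Gpd1, which makes glycerol 3-phosphate, had medians of 2582, 8296, 7142 and 7787 CPM (-1.51 ± 0.34, adjusted p = 0.0186). Lpin1, a phosphatidate phosphatase, was called at -0.97 ± 0.25 and lost in 12 of 27 fits without 1 library.

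**Figure D4:**
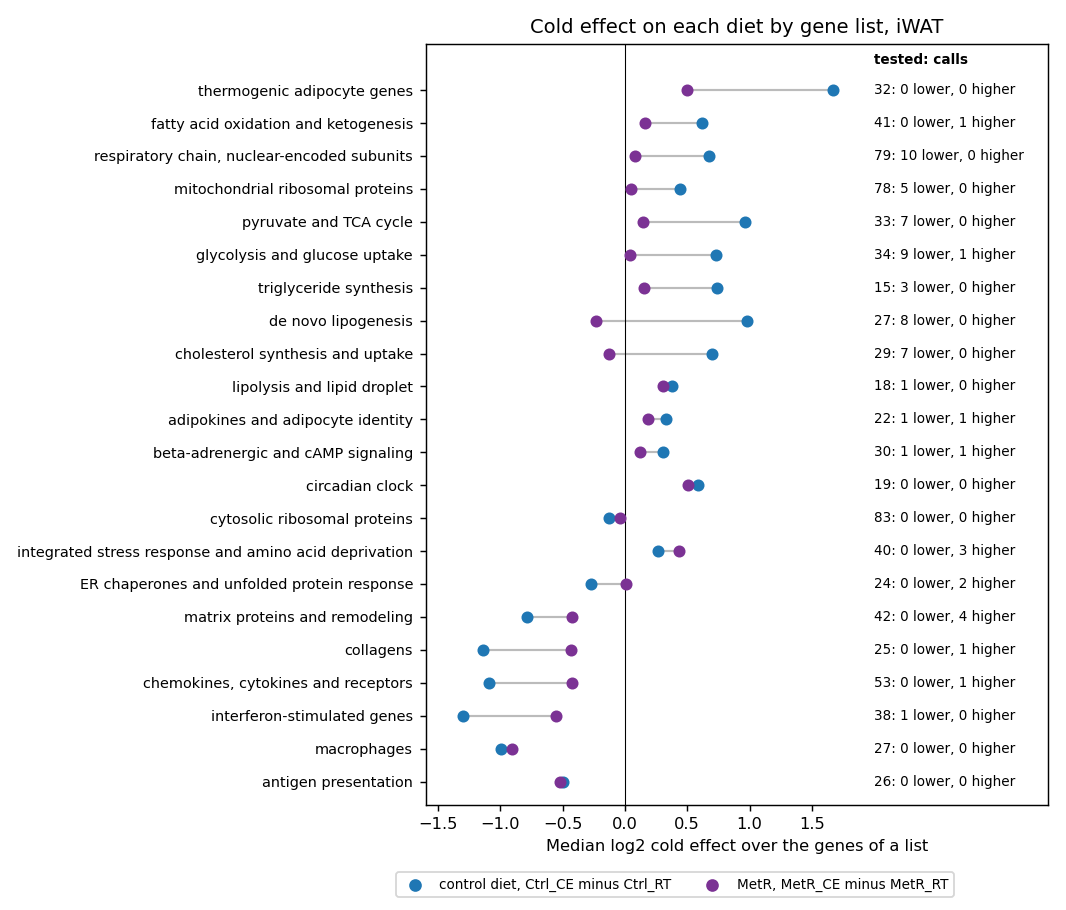
Median log2 cold effect over the tested genes of 22 lists, on the control diet (blue) and on MetR (purple), with the genes tested and called in the interaction at the right. De novo lipogenesis (0.98 against -0.23) and thermogenic genes (1.67 against 0.50) lie far apart, while macrophage genes (-0.996 against -0.91) lie close.

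Genes of pyruvate oxidation and the TCA cycle mostly rose with each single stimulus. Of 33 genes 7 were called below 0 (1.14% of all genes were) and 0 above 0, with a median of -0.77. Of the called genes, Mpc2 belongs to the mitochondrial pyruvate carrier and Dlat, Pdhx, Pdhb and Pdha1 to the pyruvate dehydrogenase complex. Cs is citrate synthase and Mdh1 the cytosolic malate dehydrogenase. With cold, 24 rose on the control diet and 0 on MetR, and 28 rose with MetR at room temperature (4.25% of all genes did).

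Dlat ran from 226 to 587 CPM in Ctrl_RT (median 272.2), from 653 to 1104 in Ctrl_CE (923), from 433 to 908 in MetR_RT (596) and from 550.2 to 1018 in MetR_CE (711). Ctrl_CE lay above Ctrl_RT without overlap, MetR_CE shared the range of MetR_RT, and the interaction was -1.36 ± 0.28 (adjusted p = 0.0134). Cs had medians of 523, 1382, 1398 and 1595 CPM (-1.004 ± 0.24, adjusted p = 0.0255), a call lost without MetR_CE replicate 5 (adjusted p = 0.0522). Mpc2 and Pdhx gave -1.16 ± 0.27 and -0.92 ± 0.22. Without the 5 libraries with the most muscle or epithelial RNA, 1 gene of this list was called, its median was -0.73, and Mpc2, Pdhx and Cs had adjusted p of 0.0577, 0.0595 and 0.0595.

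Glycolysis and glucose uptake genes were called mostly below 0, where 1.14% of all genes were called (0.511% above 0). Of 34 genes 9 were called below 0 (Tpi1, Gpd1, Ldha, Gpd2, Aldoa, Slc2a4, Gapdh, Pfkl and Eno1) and 1 above 0, with a median of -0.70. Tpi1, triosephosphate isomerase, had medians of 302, 619, 516 and 603 CPM (-0.74 ± 0.14, adjusted p = 0.0101), with all Ctrl_CE and MetR_RT libraries above Ctrl_RT. Slc2a4, the insulin-regulated glucose transporter, had medians of 281.3, 609.5, 498 and 564 CPM (-0.96 ± 0.26, adjusted p = 0.0395), a call lost in 15 of 27 fits without 1 library.

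Slc2a1, the basal glucose transporter, went the other way at 16.3, 12.3, 13.8 and 16.99 CPM (0.63 ± 0.14, adjusted p = 0.0208), with each MetR_CE library above Ctrl_CE. Skeletal muscle shares many glycolytic enzymes, and the median muscle sum was 263, 332, 1200 and 1690 CPM in the order of the groups above. Without the 5 libraries named above 2 glycolytic genes were called below 0 and 2 above 0, with a median of -0.67. Gapdh, Aldoa, Eno1, Tpi1 and Ldha have processed pseudogenes with near-identical sequence, so their counts are uncertain to that extent.

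In the respiratory chain most estimates lay below 0. Of 79 nuclear-encoded subunits 10 were called below 0 (1.14% of all genes were) and 0 above 0. The median was -0.63, and 78 estimates were below 0. In either direction 75 had an unadjusted p under 0.05, beside 4921 of 26428 over all genes. DESeq2 without shrinkage called 49 of the 79, and edgeR without the 5 libraries 5. Cold raised 53 on the control diet (5.99% of all genes) and 0 on MetR (0.602%), with medians of 0.68 and 0.08. MetR raised 67 at room temperature (4.25%).

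Atp5g3, subunit c of the ATP synthase rotor, ran from 241 to 345 CPM in Ctrl_RT (median 281.5), from 429 to 503 in Ctrl_CE (486), from 305 to 397 in MetR_RT (327) and from 331 to 406 in MetR_CE (380). Each Ctrl_CE library was above those of Ctrl_RT and of MetR_CE, and the interaction was -0.63 ± 0.11 (adjusted p = 0.00763). Ndufb7 of complex I had medians of 64.9, 115, 121 and 115 CPM (-0.84 ± 0.17, adjusted p = 0.0129), with all libraries of either single stimulus above Ctrl_RT. Reads of Atp5g3 can be shared with the paralogs Atp5g1 and Atp5g2, which encode the same mature subunit.

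Of 78 mitochondrial ribosomal proteins 5 were called below 0 (1.14% of all genes were), with a median of -0.39. Of these 78 proteins, 77 had estimates below 0 and 69 an unadjusted p under 0.05. Mrps22 of the small subunit had medians of 14.6, 27.98, 24.5 and 26.2 CPM (-0.70 ± 0.14, adjusted p = 0.0109), and Mrpl12 of the large subunit 85.1, 157, 137 and 138 CPM (-0.84 ± 0.17, adjusted p = 0.0134). Of the 13 proteins encoded in mitochondrial DNA, edgeR called 0 and DESeq2 without shrinkage 1 below 0, with 5 at an unadjusted p under 0.05 and a median of -0.40. Of 83 cytosolic ribosomal proteins, edgeR and DESeq2 called 0, with 5 at an unadjusted p under 0.05 and a median of 0.09.

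Most thermogenic genes rose with each single stimulus, and few with cold on MetR. Of 32 members 24 rose with cold on the control diet and 3 with cold on MetR, with medians of 1.67 and 0.50, and 25 rose with MetR at room temperature. The interaction had a median of -1.10, with 29 estimates below 0. edgeR called 0, with 21 at an unadjusted p under 0.05, while DESeq2 called 15 without shrinkage and 4 with it, edgeR with RLE factors 1 and with filterByExpr 5, all below 0. The summed level ran from 1012 to 2268 CPM in Ctrl_RT, from 2233 to 10700 in Ctrl_CE, from 1773 to 9420 in MetR_RT and from 6157 to 12820 in MetR_CE.

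Ucp1 ran from 1.28 to 449 CPM in Ctrl_RT (median 72.4), from 530.1 to 4481 in Ctrl_CE (2554), from 210.2 to 3598 in MetR_RT (1145) and from 2173 to 5658 in MetR_CE (3770). It rose with cold on the control diet, by 4.08 and without overlap, and with MetR at room temperature, by 3.61. On MetR the cold effect of 0.97 was not called, and the libraries overlapped. The interaction, -3.11 ± 0.98, missed the threshold (adjusted p = 0.0757), and passed without Ctrl_RT replicate 7, Ctrl_CE replicate 7 or MetR_RT replicate 5 and in DESeq2 without shrinkage (adjusted p = 0.0163).

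Some other genes of this program still responded to cold on MetR. Dio2, the deiodinase that makes active thyroid hormone, rose by 4.93 on the control diet and 2.90 on MetR, without overlap on either diet (-2.03 ± 0.70, adjusted p = 0.105 for the interaction). Ppargc1a, a coactivator of mitochondrial genes, rose by 2.71 and 1.72 (-0.99 ± 0.44, adjusted p = 0.211). Fgf21, a hormone induced by cold and by amino acid deprivation, rose by 2.84 and 2.51 (-0.33 ± 0.49, adjusted p = 0.798). Cold on MetR was not called for Elovl3 (1.14), Cpt1b (0.76) or Cidea (0.33), and their libraries overlapped. The interaction was -2.27 ± 0.82 (adjusted p = 0.121) for Elovl3, a fatty acid elongase of brown fat. It was -1.92 ± 0.62 (adjusted p = 0.0838) for Cpt1b, a carnitine acyltransferase, and -1.12 ± 0.58 (adjusted p = 0.3) for Cidea, a lipid droplet protein. With these standard errors, a value that was not called is not shown to be additive.

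Beta-adrenergic and cAMP signaling gave 1 call in each direction among 30 genes, with a median of -0.12. Over all genes 1.14% were called below 0 and 0.511% above 0, so single calls in a list of this size describe no trait of it. Prkaca, the catalytic subunit of protein kinase A, had medians of 219.6, 448, 441 and 419 CPM (-0.84 ± 0.17, adjusted p = 0.0132), and each Ctrl_CE library was above Ctrl_RT. Adcy5, an adenylyl cyclase, fell with cold on the control diet, by 1.51, and with MetR at room temperature, by 1.08. Its medians were 219, 77.4, 79.2 and 134 CPM (1.93 ± 0.41, adjusted p = 0.0146), and the groups overlapped. Gnal, a stimulatory G protein subunit that activates adenylyl cyclase, had medians of 15.5, 3.38, 4.16 and 3.74 CPM (2.52 ± 0.46, adjusted p = 0.00854). These were alike in the 3 groups other than Ctrl_RT, whose libraries ran from 4.43 to 37.4 CPM and overlapped each of them.

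Fatty acid oxidation and ketogenesis genes had a median interaction of -0.42, with 35 of 41 estimates below 0. edgeR called 0 of them below 0, with 21 in either direction at an unadjusted p under 0.05, and DESeq2 without shrinkage called 8. With cold 20 rose on the control diet and 1 on MetR, and 23 rose with MetR at room temperature. Among lists of lipid handling, the droplet coat protein Plin2 (-0.87 ± 0.24, adjusted p = 0.044) and the fatty acid binding protein Fabp5 (-1.25 ± 0.35, adjusted p = 0.0474) were called below 0, and each call was lost in 19 of 27 fits without 1 library. Of the thermogenic cycles that do not use Ucp1, Pm20d1, which makes N-acyl amino acids, was called below 0 (-1.28 ± 0.32, adjusted p = 0.0288), and Ucp2, a mitochondrial carrier related to Ucp1, above 0 (0.81 ± 0.21, adjusted p = 0.0315). They lost their calls in 5 and 10 of these fits.

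The adipocyte hormones leptin and adiponectin were not called. Lep, leptin, gave 0.09 ± 0.45 (adjusted p = 0.954) and changed sign under 6 alternatives, and Adipoq, adiponectin, gave 0.32 ± 0.21 (adjusted p = 0.448). Sfrp5, a secreted Wnt inhibitor of adipocytes, was called above 0 (1.73 ± 0.47, adjusted p = 0.0437), a call lost in 20 of 27 fits without 1 library. Of 19 circadian clock genes edgeR called 0 and DESeq2 without shrinkage 1 below 0, with 4 at an unadjusted p under 0.05. Their median cold effect was 0.59 on the control diet and 0.50 on MetR.

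Il4ra, the receptor chain shared by interleukins 4 and 13, had the smallest adjusted p above 0. It ran from 60.8 to 107 CPM in Ctrl_RT (median 68.8), from 27.99 to 47.9 in Ctrl_CE (33.6), from 23.3 to 38.5 in MetR_RT (32.7) and from 25.9 to 33.97 in MetR_CE (31.9). Libraries of the other 3 groups were all below those of Ctrl_RT and overlapped each other, and the interaction was 1.16 ± 0.19 (adjusted p = 0.00528). It was the call among 53 chemokines, cytokines and receptors (0.511% of all genes were called above 0). The median of that list was 0.52, and DESeq2 without shrinkage called 5 of it above 0. Of that list 32 fell with cold on the control diet (9.94% of all genes did) and 4 on MetR. Ccl2, a chemokine that attracts monocytes, gave 2.81 ± 0.85 (adjusted p = 0.065) and was not called.

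Interferon-stimulated genes had a median interaction of 0.76, with 33 of 38 estimates above 0. edgeR and DESeq2 called 0 above 0, and 15 genes in either direction had an unadjusted p under 0.05. With cold 34 fell on the control diet and 5 on MetR, and 33 fell with MetR at room temperature (7.36% of all genes did). Ifi27, a mitochondrial protein, was called below 0 at 514, 706, 773 and 664 CPM (-0.67 ± 0.15, adjusted p = 0.02). Macrophage genes had median cold effects of -0.996 on the control diet, where 17 fell, and -0.91 on MetR, where 4 fell. Of 27 members edgeR and DESeq2 called 0 in the interaction, with 0 at an unadjusted p under 0.05. In bulk tissue, fewer cells of a type and less RNA per cell cannot be told apart.

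Of 42 matrix and remodeling genes 4 were called above 0 (median 0.50), and of 25 collagens 1 was (median 0.29). Over all genes 0.511% were called above 0. Col12a1, a fibril-associated collagen, ran from 10.1 to 44.3 CPM in Ctrl_RT (median 28.5), from 4.25 to 11.7 in Ctrl_CE (9.02), from 3.48 to 13.9 in MetR_RT (5.24) and from 6.61 to 21.6 in MetR_CE (8.59). Medians were lower in the 3 other groups than in Ctrl_RT, with overlap (2.19 ± 0.46, adjusted p = 0.0138). Plod2, a lysyl hydroxylase of collagen, was below Ctrl_RT in every Ctrl_CE and MetR_RT library, at 12.95, 6.02, 6.61 and 6.49 CPM (1.05 ± 0.23, adjusted p = 0.0183). Thbs1, P4ha2 and Bgn gave 2.46 ± 0.60, 0.59 ± 0.16 and 1.15 ± 0.33, and lost their calls in 3, 20 and 21 of 27 fits without 1 library.

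Col1a1, a chain of the main fibrillar collagen, kept its response to cold on MetR. It fell by 1.98 on the control diet and by 1.70 on MetR, where all MetR_CE libraries, from 212 to 382 CPM, were below those of MetR_RT, from 456 to 2185 CPM. The interaction was 0.28 ± 0.67 (adjusted p = 0.885).

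Chaperones of the endoplasmic reticulum and the unfolded protein response had small estimates above 0. All 24 members were above 0 with a median of 0.35, whereas with RLE factors 2 were below 0. Pdia4, a protein disulfide isomerase, had medians of 133, 74.4, 91.9 and 85.9 CPM (0.81 ± 0.17, adjusted p = 0.0127), with all Ctrl_CE libraries below Ctrl_RT. Xbp1, a transcription factor of that response, was also called (0.59 ± 0.14, adjusted p = 0.0245), but fell under the 1.5-fold threshold with RLE factors and lost its call in 10 of 27 fits without 1 library. Among immediate early genes, Fosl1, an AP-1 subunit, was called above 0 (3.65 ± 0.97, adjusted p = 0.0392) at levels of at most 2.59 CPM, some libraries being at 0, and lost its call in 15 of these fits.

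Of the genes called above both single stimuli, Zim1 is an imprinted zinc finger gene. It ran from 1.46 to 3.44 CPM in Ctrl_RT (median 2.50), from 0.731 to 2.88 in Ctrl_CE (1.27), from 1.56 to 3.84 in MetR_RT (2.26) and from 2.74 to 11.7 in MetR_CE (6.32). Cold lowered it on the control diet, by 0.88 (adjusted p = 0.0249), and raised it on MetR, by 1.46 (adjusted p = 0.00493), with some overlap between neighbouring groups. The interaction was 2.34 ± 0.42 (adjusted p = 0.00777). Peg3, the imprinted zinc finger gene beside it on chromosome 7, was singled out after its values were seen. It ran from 20.5 to 86.7 CPM in Ctrl_RT (median 53.1), from 12.98 to 42.7 in Ctrl_CE (20.5), from 32.1 to 98.7 in MetR_RT (39.9) and from 62.04 to 164 in MetR_CE (98.4), with each MetR_CE library above Ctrl_CE (2.09 ± 0.43, adjusted p = 0.0134). Unc79, a subunit of a sodium leak channel, also singled out afterwards, was called above both single stimuli at levels of at most 0.702 CPM (3.07 ± 0.62, adjusted p = 0.0115).

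The promoters of Zim1 and Peg3, which were both higher in MetR_CE than in Ctrl_CE, are shown beside those of Agpat2 and Atp5g3, which had interactions below 0. Each is the 250 bases before the RefSeq start of the gene in GRCm38.p6, 5′ to 3′ on the minus strand, at chr7:6696433-6696682 for Zim1, chr7:6730420-6730669 for Peg3, chr2:26604418-26604667 for Agpat2 and chr2:73911327-73911576 for Atp5g3. Capitals mark matches to 4 motifs searched on both strands, the E-box CACGTG, the cAMP response element TGACGTCA, the amino acid response element TGATGCAA and the sterol response element TCACNCCAC.
Zim1: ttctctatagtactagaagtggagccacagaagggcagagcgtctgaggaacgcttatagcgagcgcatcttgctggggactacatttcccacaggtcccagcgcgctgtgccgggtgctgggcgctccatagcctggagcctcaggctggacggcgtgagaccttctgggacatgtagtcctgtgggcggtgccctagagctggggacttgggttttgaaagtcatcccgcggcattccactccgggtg
Peg3: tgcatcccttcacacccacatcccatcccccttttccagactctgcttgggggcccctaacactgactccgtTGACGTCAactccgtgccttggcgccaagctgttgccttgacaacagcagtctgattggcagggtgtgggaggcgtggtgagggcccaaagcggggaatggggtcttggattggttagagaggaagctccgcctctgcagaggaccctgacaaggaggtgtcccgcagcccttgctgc
Agpat2: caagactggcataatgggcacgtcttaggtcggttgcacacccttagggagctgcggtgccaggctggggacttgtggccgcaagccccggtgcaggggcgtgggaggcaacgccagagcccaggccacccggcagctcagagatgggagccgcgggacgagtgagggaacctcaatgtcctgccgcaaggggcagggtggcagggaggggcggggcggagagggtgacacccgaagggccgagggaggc
Atp5g3: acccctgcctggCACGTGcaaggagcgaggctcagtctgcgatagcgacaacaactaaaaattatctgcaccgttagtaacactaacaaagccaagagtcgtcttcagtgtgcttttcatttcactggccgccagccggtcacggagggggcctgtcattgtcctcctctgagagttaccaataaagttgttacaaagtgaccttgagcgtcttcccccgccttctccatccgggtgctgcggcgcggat

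Peg3 held a cAMP response element 178 to 171 bases before its start and Atp5g3 an E-box 238 to 233 bases before its start, and no other match was found in the 4 windows. Of 27025 genes in the RefSeq promoter table, 6.86% held the E-box, 1.77% the cAMP response element, 0.918% the amino acid response element and 1.22% the sterol response element. The E-box was in 18 of 212 matched genes called below 0 (8.49%) and in 9 of 91 above 0 (9.89%). In the same order the cAMP response element was in 5 (2.36%) and 1 (1.1%), and the amino acid response element in 1 (0.472%) and 1 (1.1%). The sterol response element was in 2 (0.943%) and 3 (3.3%). Of the 13 matched genes called in lipogenesis and cholesterol synthesis, 2 held the E-box (15.4%) and 1 the cAMP response element (7.69%). The amino acid and sterol response elements were in 0 of the 13. A match describes the letters only.

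Vnn1, a pantetheinase that releases cysteamine, ran from 3.28 to 40.01 CPM in Ctrl_RT (median 24.1), from 2.05 to 12.2 in Ctrl_CE (4.39), from 6.66 to 23.4 in MetR_RT (10.3) and from 12.5 to 30.6 in MetR_CE (22.95). Each MetR_CE library was above those of Ctrl_CE, and the interaction was 3.07 ± 0.57 (adjusted p = 0.00854). The lowest Ctrl_RT value belonged to replicate 5. St6galnac5, a sialyltransferase, had medians of 30.1, 10.6, 20.5 and 21.5 CPM (1.47 ± 0.26, adjusted p = 0.00688), with Ctrl_CE below both Ctrl_RT and MetR_CE without overlap. Dock9, an exchange factor for Cdc42, was likewise above Ctrl_CE in each MetR_CE library (0.70 ± 0.15, adjusted p = 0.0133). The remaining genes among the 12 with the smallest adjusted p above 0 were Gulp1, Glt8d1, Filip1l and Rab23, at 1.33, 0.62, 0.75 and 0.61. Of these 12, Glt8d1 lost its call without MetR_RT replicate 6 and Rab23 in 4 fits without 1 library.

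Amino acid deprivation genes gave 3 calls above 0 (0.511% of all genes were) and 0 below 0 among 40, with a median of 0.17. Gdf15, a stress hormone that lowers appetite, ran from 0.834 to 9.29 CPM in Ctrl_RT (median 1.55), from 0.905 to 4.24 in Ctrl_CE (1.41), from 0.226 to 0.953 in MetR_RT (0.649) and from 1.87 to 17.5 in MetR_CE (3.28). On MetR every cold library was above those at room temperature, by 3.53 (adjusted p = 0.00174), while MetR lowered the gene at room temperature, by 2.20 (adjusted p = 0.00851). The interaction was 3.82 ± 0.82 (adjusted p = 0.0158), and MetR_CE was not called above Ctrl_CE (adjusted p = 0.104). The amino acid transporters Slc7a5 (1.57 ± 0.39, adjusted p = 0.0291) and Slc7a1 (0.88 ± 0.22, adjusted p = 0.0303) had medians of 6.60, 3.65, 3.41 and 5.54 CPM and of 13.1, 9.64, 10.6 and 13 CPM, with overlap throughout, and each lost its call in 7 of 27 fits without 1 library.

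With the apeglm shrinkage of DESeq2, the estimates of Vnn1, St6galnac5, Gdf15, Peg3, Adcy5, Col12a1, Slc7a5 and Slc7a1 fell to near 0 and their calls were lost, whereas Zim1, Il4ra, Gnal and Pdia4 were called with it too.

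**Figure D5:**
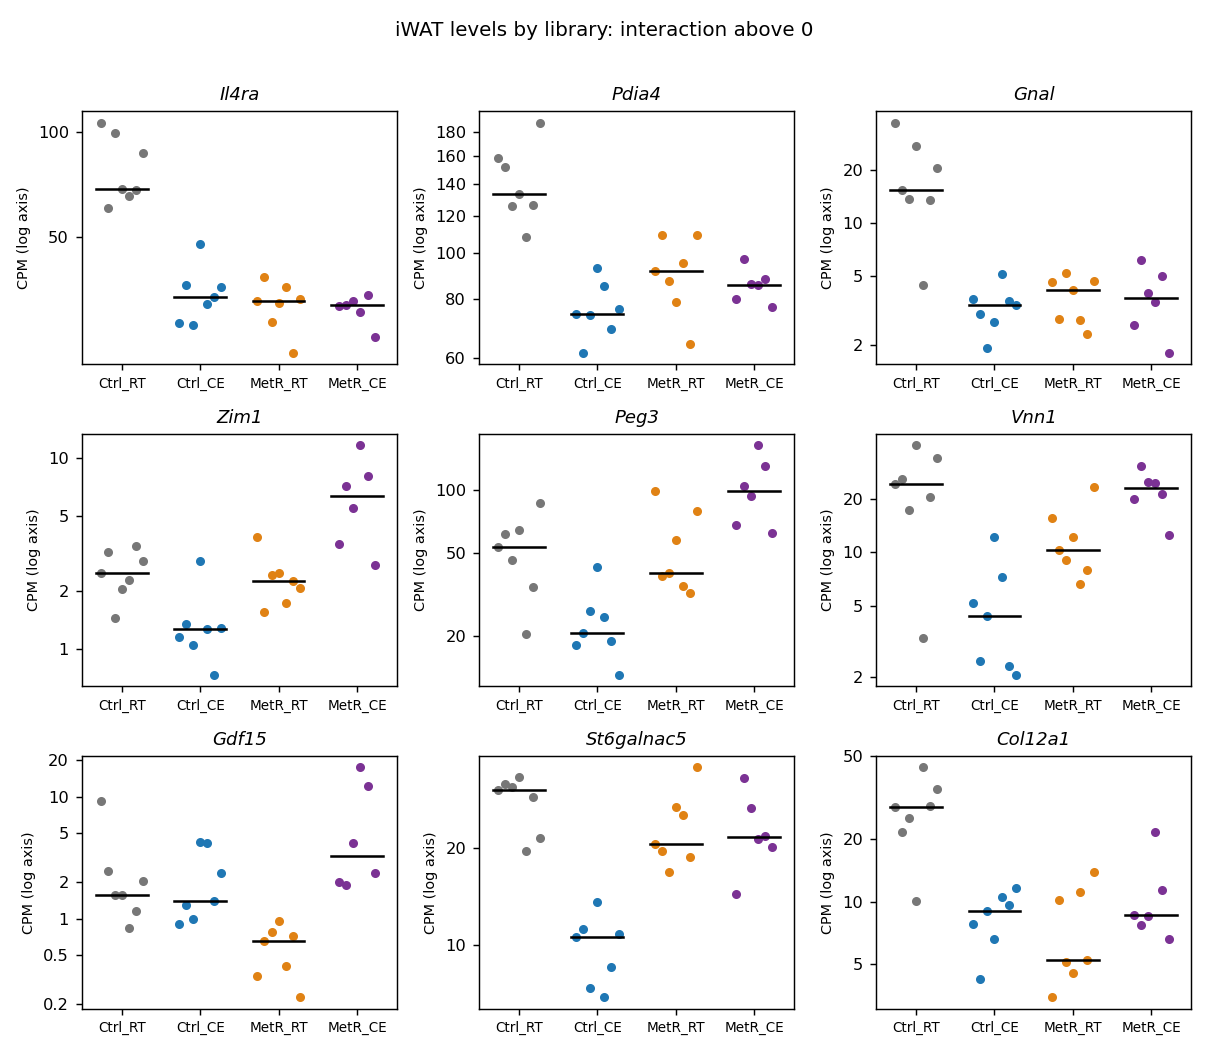
Levels of 9 genes with an interaction above 0, in CPM on log axes, with a point per library (7 in Ctrl_RT, Ctrl_CE and MetR_RT, 6 in MetR_CE) and a line at the group median. Il4ra, Pdia4 and Gnal have like levels in the 3 groups other than Ctrl_RT, Zim1 and Peg3 have their highest medians in MetR_CE (6.32 and 98.4 CPM), and Gdf15 has its lowest in MetR_RT (0.649 CPM).

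Sulfur and redox genes gave scattered calls. In the methionine cycle and transsulfuration list, Pemt, which methylates phosphatidylethanolamine, and Cdo1, cysteine dioxygenase, were called below 0 (-0.64 ± 0.14 and -0.69 ± 0.19), and Sat1, which acetylates polyamines, above 0 (0.74 ± 0.18). They lost their calls in 1, 16 and 2 of 27 fits without 1 library. Gsta4, a glutathione transferase, was called below 0 at 18.9, 36.6, 37.9 and 35.4 CPM (-0.86 ± 0.20, adjusted p = 0.0208). Gpx1, a glutathione peroxidase, was called above 0 (0.59 ± 0.15) and fell under the 1.5-fold threshold with RLE factors, as did Angptl2, an angiopoietin-like secreted protein (0.59 ± 0.14).

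The 5 genes called below both single stimuli were Bmyc, Ccdc144b, Prune2, Tmprss6 and Gm34759, singled out after their values were seen. Bmyc, a relative of Myc, had medians of 6.50, 12.9, 9.95 and 5.36 CPM (-1.80 ± 0.42, adjusted p = 0.0215). Prune2 ran from 18.8 to 55.7 CPM in Ctrl_RT (median 35.2), from 33.5 to 57.9 in Ctrl_CE (37.8), from 7.41 to 85.03 in MetR_RT (40.4) and from 4.79 to 21.4 in MetR_CE (10.4), with all MetR_CE libraries below Ctrl_CE (-1.82 ± 0.50, adjusted p = 0.0437). Tmprss6, a serine protease known from iron control in liver, had medians of 1.6, 2.35, 1.70 and 0.936 CPM (-1.38 ± 0.34, adjusted p = 0.028), and its MetR_CE libraries overlapped neither single stimulus. Prune2 and Tmprss6 lost their calls in 19 and 5 of 27 fits without 1 library, and Bmyc and Ccdc144b in 0.

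Of the genes called below 1 single stimulus, 3 with a known role in lipid metabolism or cAMP were also singled out afterwards. Slc25a10, the mitochondrial dicarboxylate carrier, was lower on MetR in the cold, at 547, 881, 731 and 581 CPM (-1.17 ± 0.24, adjusted p = 0.0134). Mid1ip1, which activates acetyl-CoA carboxylase, was lower as well, at 70.5, 249, 113 and 108 CPM (-1.54 ± 0.44, adjusted p = 0.0495). Ptger3, a prostaglandin E2 receptor that lowers cAMP, fell with cold on MetR, at 135, 178, 227 and 97.3 CPM (-1.56 ± 0.42, adjusted p = 0.039), and its MetR_CE libraries were all below Ctrl_CE. Mid1ip1 and Ptger3 lost their calls in 19 and 14 of 27 fits without 1 library.

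Markers of other cell types gave 1 call. edgeR called 0 of 24 skeletal muscle, 0 of 26 epithelial, 0 of 21 endothelial and 0 of 21 progenitor and fibroblast genes, with 4, 3, 1 and 3 at an unadjusted p under 0.05, and DESeq2 called 0 in each. As 1.65% of all genes were called, lists of this size can lack calls at that share, and the zeros describe no trait of these cells. Trac, the constant gene of the T cell receptor alpha chain, was called below 0 at 1.01, 2.10, 2.04 and 0.727 CPM (-2.09 ± 0.56, adjusted p = 0.0401), and lost its call in 16 of 27 fits without 1 library. The summed lymphocyte level ran from 83.6 to 217 CPM in Ctrl_RT, from 102 to 276.8 in Ctrl_CE, from 98.7 to 255 in MetR_RT and from 122 to 396 in MetR_CE. With a covariate for that level 693 genes were called in the interaction, with that for muscle 427 and with that for epithelium 502.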

How the data were processed

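Polyadenylated RNA of iWAT was sequenced as 2 x 50 bp pairs with a kit that does not mark strand. The authors deposited whole-number counts per Ensembl gene, without normalization, and the submitters' processing notes name STAR 2.7.9a, featureCounts 2.0.3, Salmon 1.9.0 and the mm10 build. The name of the deposited table says Salmon, the whole numbers do not tell which counter made it, and either can split reads between near-identical genes. Columns were matched to samples by library number, and groups were taken from the titles. The other 27 columns of the table, from brown fat, were not used, and liver and the other fat depots were not analysed here.

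Of 56884 genes, 26428 with at least 10 counts over the 27 libraries were tested with edgeR 4.0.16 (R 4.3.3, limma 3.58.1), using TMM factors and the quasi-likelihood F test on diet, temperature and their interaction. The p-values were adjusted by Benjamini-Hochberg over all genes tested, and a call needed an adjusted p under 0.05 and 1.5-fold. The SE is the log2 fold change divided by the square root of F. Levels are TMM-scaled CPM, with a prior count of 2 on the log scale. The scripts were tested on simulated data. With the total counts given above, genes of few counts have wide errors, which the SE carries.

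Named genes were the 12 of smallest adjusted p in each direction with a mean of at least 1 CPM and a symbol that is not a clone name, up to 4 called members per list and direction, and 13 fixed genes (Ucp1, Cidea, Dio2, Elovl3, Ppargc1a, Cpt1b, Fgf21, Lep, Adipoq, Fasn, Acly, Col1a1 and Ccl2). Some genes that this rule gave are not reported here. The members and lists were chosen with earlier results of these data known. Other fits used DESeq2 1.42.0, alone or with shrinkage by apeglm 1.24.0, RLE factors, filterByExpr, no filter beyond 1 count, glmTreat, a replicate block, covariates for lymphocytes, muscle and epithelium, and each library left out. The fit without 5 libraries rich in muscle or epithelial RNA (Ctrl_RT replicate 2, Ctrl_CE replicate 5, MetR_RT replicates 5 and 6, MetR_CE replicate 6) was added after seeing the data. Promoters came from RefSeq on GRCm38.p6.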

Additional observations from a re-analysis of the deposited data

Results flagged for a closer look

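The cold effect differed between the diets by the test of the interaction for 135 genes in the higher and 300 in the lower direction on MetR. Within groups, the distance of the highest or lowest library to its neighbour was compared with the range of the group by Dixon's test at 95%, over 412 groups of values. It passed in 30, where chance passes about 1 in 20, or 20.6.

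Of these, 14 lay in Ctrl_RT replicate 5. It was the highest of its group for Odf3l1 (12.97 CPM), Kmt5a (201.9 CPM), Agpat2 (1599 CPM), Fam69b (34.07 CPM), Uqcrq (291.8 CPM), Dlat (587.4 CPM), Pdhx (115.5 CPM), Cs (907.1 CPM), Gpd1 (4497 CPM), Plin2 (1137 CPM), Fabp5 (524.3 CPM), Mrpl12 (107.5 CPM) and Mrpl51 (71.47 CPM), and the lowest for Vnn1 (3.282 CPM).

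Elsewhere the highest library stood apart for Gypc in Ctrl_CE replicate 2 (76.08 CPM), Zim1 in Ctrl_CE replicate 4 (2.881 CPM), Tpi1 in MetR_RT replicate 6 (723.3 CPM), Sfrp5 in Ctrl_CE replicate 7 (14.67 CPM), Gdf15 in Ctrl_RT replicate 1 (9.29 CPM), Thbs1 in Ctrl_CE replicate 5 (18.44 CPM) and Adipoq in Ctrl_CE replicate 4 (2097 CPM). The lowest stood apart for Gulp1 in MetR_CE replicate 6 (13.06 CPM), Ndufs5 in Ctrl_CE replicate 7 (33.16 CPM), Fads2 in MetR_CE replicate 4 (13.69 CPM), Gpx1 in MetR_CE replicate 1 (36.74 CPM), Ucp1 in Ctrl_RT replicate 2 (1.275 CPM), Fgf21 in MetR_CE replicate 2 (2.386 CPM), Slc25a10 in Ctrl_CE replicate 4 (504.9 CPM) and Unc79 in MetR_CE replicate 1 (0.1048 CPM). The summed epithelial level of Ctrl_CE replicate 5 was 359.4 CPM and stood apart as well.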

How the results depend on the processing

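The interaction was called for 435 genes (135 higher, 300 lower) and for 0 with glmTreat (0 and 0), 665 with filterByExpr (479 lower), 693 with the lymphocyte covariate (259 higher), 255 without the 5 libraries rich in muscle or epithelial RNA (88 and 167), 930 by DESeq2 without shrinkage (250 and 680), and 51 higher genes with apeglm. The lower share of the calls was 69% with TMM, 75.6% with RLE factors and 87.7% with apeglm. Leaving out 1 library gave from 169 to 901 genes, 48 to 309 higher and 121 to 633 lower. For the component contrasts, these fits gave from 3662 to 4948 for Ctrl_CE against Ctrl_RT, 178 to 721 for MetR_CE against MetR_RT, 2601 to 3342 for MetR_RT against Ctrl_RT and 135 to 832 for MetR_CE against Ctrl_CE. In the same order glmTreat gave 674, 4, 695 and 2, and DESeq2 without shrinkage gave 981 for MetR_CE against MetR_RT and 1063 for MetR_CE against Ctrl_CE. The cause of these shifts was not tested. With the replicate number as a block, 587 genes were called, 229 of them higher (61% lower). Libraries with the same number came from different mice, had correlations from -0.417 to 0.609 and matched their own number best in 4 of 27, so the numbers do not pair them. Lep changed sign with the lymphocyte covariate (-0.031), without the 5 libraries (-0.15) and without Ctrl_RT replicate 3, Ctrl_CE replicate 4, MetR_RT replicate 6 or MetR_CE replicate 4, with a range from -0.056 to 0.29 over the fits without 1 library, and Gulp1 with apeglm (-4.58e-06). Without the 5 libraries, 30 named genes lost their call. MetR_CE held 6 libraries, and genes of few counts have wide errors.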
